A study of Mus musculus with 50 samples.

Results

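The 7 genes described here encode the receptors through which endothelial cells sense vascular endothelial growth factor (VEGF) and the angiopoietins. They were taken by name, and each of Kdr, Flt1, Flt4, Nrp1, Nrp2, Tek and Tie1 had a row among the 11879 gene rows of the table. The 50 samples were single mouse cells of 1 kind, induced hemogenic endothelial cells (iHECs), made in culture from an embryonic stem cell line of C57BL/6 background that carries a doxycycline-inducible Runx1 cassette in the Rosa26 locus (iRunx1). They were sorted at day 11 as CD31+CD41lowCD45-c-kit+CD201high after doxycycline and conditioned medium of the AFT024 stromal line from day 6, and VEGF had been among the factors of the earlier culture. There was no cell without the cassette, no cell without doxycycline and no second time point, so the 50 cells formed 1 sample without a replicate and no test between conditions was possible. The iRunx1 line was the only stem cell line, and every cell carried both the cassette and the endogenous gene.

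VEGF receptor kinases sit at the head of the pathway that first makes endothelium and then drives its growth and sprouting, and Kdr marks the mesoderm from which blood and vessels arise. Neuropilins have no kinase of their own: they bind VEGF or class 3 semaphorins and present them to VEGF receptor kinases or plexins. The Tie receptors act later, in vessels that are already formed, where angiopoietins tune their stability, and Tek is also found on blood stem cells. In hemogenic endothelium Runx1 is the transcription factor needed for endothelial cells to turn into blood cells.

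Levels are in TPM, transcript abundances corrected for gene length and scaled to a common total, so they can be set side by side between genes. A gene was counted as present in a cell when its TPM was above 1, and shares of cells carry exact Clopper-Pearson 95% intervals that cover counting error over cells only. The number of genes above TPM 1 ran from 2400 in cell 4-6 to 8615, with a median of 6223.5, and the depth of each cell is unknown since TPM does not keep it. Sample titles carry a pair of numbers whose meaning is not given in the sources used here. The first of them, from 1 to 4, split the cells into sets of 11, 14, 13 and 12, and is used below to show whether a pattern was repeated within these sets. A listed 0 can be a missed transcript in a single cell and is not read as absence.

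Endothelial markers were found in nearly every cell. All 9 endothelial markers examined were above TPM 1 in at least 45 cells, and Pecam1 (CD31), Cdh5 (VE-cadherin) and Egfl7 were above it in all 50. The pan-blood gene Ptprc, which encodes CD45, was listed at 0 in every cell, as were Spn and Cd48. The cells had been sorted for CD31 and against CD45, so Pecam1 and Ptprc are not independent signs of their kind. With 0 of 50 cells above TPM 1 the share can still be 6% by the limit of 3 counts, while the exact interval reaches 7.11%. Laptm5 and Coro1a, which blood cells also express, were above TPM 1 in 48 and 21 cells. Lyve1, used as a lymphatic marker but also made by early embryonic endothelium, was above TPM 1 in 42 cells with a median of 89.5 TPM, while Prox1, the transcription factor that defines lymphatic endothelium, was above it in 1 cell at 1.58 TPM. None of the 6 mesenchymal markers with a row exceeded TPM 1 in over 4 cells, and none of the 5 erythroid markers with a row in over 8. Some markers of myeloid cells were present: the Fc receptor gene Fcgr3 was above TPM 1 in 33 cells with a median of 49.7 TPM, Cd68 in 22, the lysozyme gene Lyz2 in 15, Mpo in 4 and Csf1r in 3. The 5 myeloid markers with a row summed to between 0 and 1801 TPM per cell. Fcgr3 leaned negatively with the mean receptor level by the rule explained below, and its part in the results was not tested. None of the 5 pluripotency markers had a row.

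Kdr had weak positive relations across cells with Nrp1, Nrp2 and Tek, given below with their limits, and the stretches before the RefSeq start sites of these 4 genes are printed here so that their sequences can be compared. They come from the RefSeq promoter table (build GRCm38.p6), which matched all 7 receptors and gives 250 bases before and 50 bases after each start site. Only bases outside annotated exons are printed, 5′ to 3′ on the strand of the gene, and capitals mark the 4 bases GGAA or, read from the other strand, TTCC, the core of the motif bound by ETS factors, a family with many members in endothelium. The stretches are chr5:75978459-75978705 on the minus strand for Kdr, chr4:94739039-94739288 on the plus strand for Tek, chr8:128358823-128359072 on the plus strand for Nrp1, and chr1:62703067-62703284 on the plus strand for Nrp2. The Nrp1 stretch lies inside the annotated gene, in the first intron of a transcript that starts further upstream.
Kdr: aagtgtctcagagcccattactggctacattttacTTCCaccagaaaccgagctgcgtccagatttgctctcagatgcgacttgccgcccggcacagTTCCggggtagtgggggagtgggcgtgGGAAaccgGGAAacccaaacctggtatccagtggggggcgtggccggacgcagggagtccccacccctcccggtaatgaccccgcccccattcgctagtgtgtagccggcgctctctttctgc
Tek: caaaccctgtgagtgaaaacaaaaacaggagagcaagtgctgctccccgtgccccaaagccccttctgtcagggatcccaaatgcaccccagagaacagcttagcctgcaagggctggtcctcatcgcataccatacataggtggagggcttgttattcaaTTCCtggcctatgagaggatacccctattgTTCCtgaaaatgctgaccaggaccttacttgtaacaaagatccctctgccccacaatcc
Nrp1: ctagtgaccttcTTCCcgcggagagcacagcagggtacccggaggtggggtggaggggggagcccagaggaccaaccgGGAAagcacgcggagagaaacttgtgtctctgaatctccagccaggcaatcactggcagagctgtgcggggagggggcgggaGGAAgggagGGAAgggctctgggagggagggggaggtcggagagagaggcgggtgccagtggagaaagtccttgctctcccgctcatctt
Nrp2: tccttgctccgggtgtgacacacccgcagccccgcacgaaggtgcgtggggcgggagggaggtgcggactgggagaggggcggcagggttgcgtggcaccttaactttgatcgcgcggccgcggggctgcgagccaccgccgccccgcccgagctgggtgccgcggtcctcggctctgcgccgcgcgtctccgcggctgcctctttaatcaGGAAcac
In the whole 300-base windows the GGAA core was found 9 times for Tie1, 5 times each for Kdr and Nrp1, 4 times for Flt1, 2 times each for Tek and Flt4 and 1 time for Nrp2, with both strands searched and overlapping matches counted. Of the Tie1 window only 38 bases lay outside annotated exons, and they held 2 of its 9 matches. The Flt4 window had 0 bases outside exons. At least 1 match was found in 96.0% of the 32851 mouse promoters of that table, with a median of 3, and 9 or more in 1.59%. The GATA core GATAA was found for Tek alone, once, against 25.4% of all promoters with a match, and TATAAA for Flt1 alone, against 13.6%. The RUNX core TGTGGT was in none of the 7 windows and in 16.8% of all promoters. The GC content of the windows ran from 52.0% for Tek to 70.7% for Flt1 and Nrp2, and the median over all promoters was 52.7%. These are matches of letters in short windows, and binding was not measured.

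In the GRCm38 annotation, Kdr lies on chromosome 5 from 75932827 to 75978458 and Flt1 on the same chromosome from 147561604 to 147726011. Tek and Tie1 share chromosome 4, at 94739289 to 94874976 and 118471191 to 118490061. Flt4 is on chromosome 11 from 49609263 to 49652739, Nrp1 on chromosome 8 from 128358604 to 128503363 and Nrp2 on chromosome 1 from 62703285 to 62818695. Other annotated genes overlapped only Nrp1 (Mir1903) and Nrp2 (Gm29083 on the opposite strand and Gm37121), and none of these 3 had a row. Whether the counting used strand was not given in the sources used here, so reads of the antisense gene and of Nrp2 cannot be told apart.

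All 7 receptors were above TPM 1 in over 50% of the cells, a level that 51.4% of all gene rows reached. Tie1, the Tie family member without a known high-affinity ligand, had the highest median. It ran from 15.5 to 579 TPM with a median of 213 TPM, and was above 100 TPM in 44 cells. No cell lacked it, and its median lay above those of 93.6% of the gene rows. Tek (Tie2), the angiopoietin receptor, ran from 0.37 to 587 TPM with a median of 77.1 TPM and was present in 49 cells. The top value of Tek stood alone, since the next highest cell was at 202 TPM.

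Kdr (VEGFR2), the main signalling receptor for VEGF-A, was present in all 50 cells. Its levels ran from 3.54 to 520 TPM with a median of 111 TPM, and 48 cells were above 10 TPM. Flt1 (VEGFR1) binds VEGF-A tightly but signals weakly and is known as a trap for the ligand. It was present in 45 cells (90%, interval 78.2 to 96.7%) and ran from 0 to 413 TPM around a median of 67.0 TPM. Flt4 (VEGFR3), the receptor of VEGF-C and VEGF-D, was present in 44 cells (88%, interval 75.7 to 95.5%) and ran from 0 to 207 TPM around a median of 25.1 TPM. These 3 kinases were at their highest in the same cell, 4-3, whose 7 receptors summed to 1640 TPM against a median cell of 584 TPM.

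The neuropilins were the receptors most often not seen. Nrp1, a co-receptor of Kdr, was present in 41 cells (82%, interval 68.6 to 91.4%) and ran from 0 to 129 TPM with a median of 43.2 TPM. Nrp2, which pairs with Flt4 in lymphatic endothelium, was present in 36 cells (72%, interval 57.5 to 83.8%) and ran from 0 to 79.0 TPM with a median of 8.70 TPM. At a limit of 10 TPM its share was 44%. Of the 14 cells without Nrp2 above TPM 1, 10 listed it at 0, whereas 6 of the 9 cells without Nrp1 above TPM 1 held a trace of it.

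**Figure D1:**
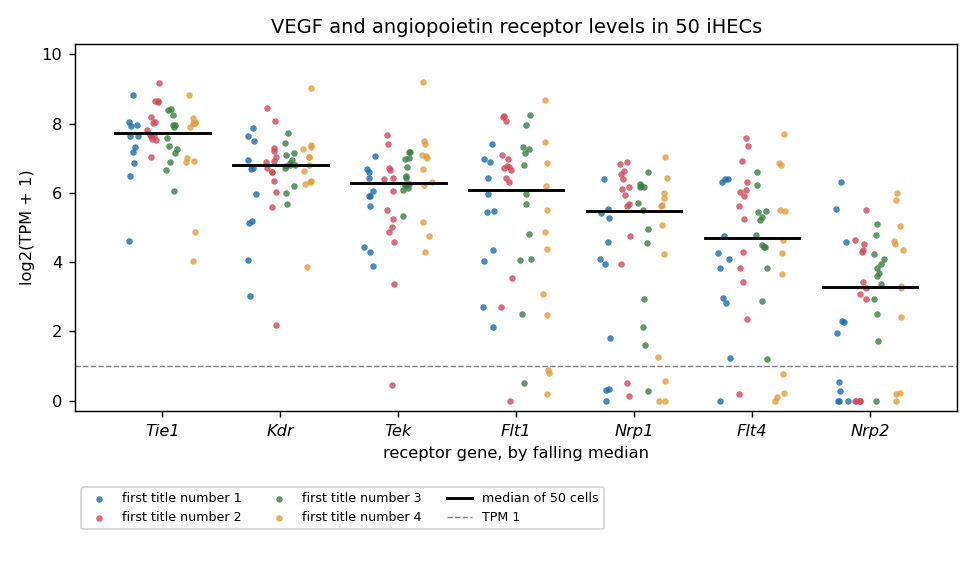
Levels of the 7 receptor genes in 50 single iHECs as log2(TPM + 1), with 1 point per cell coloured by the first title number, a black bar at the median of the 50 cells and a dashed line at TPM 1. Tie1 and Kdr are above the line in all 50 cells, and the points at or under it are most frequent for Nrp2, with 14 cells.

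The order of the medians was Tie1, Kdr, Tek, Flt1, Nrp1, Flt4 and Nrp2, and cell by cell some neighbours in it were close. Tie1 exceeded Kdr in 39 of 50 cells, and it was the highest of the 7 in 33 cells. Kdr exceeded Tek in 33 cells, Tek exceeded Flt1 in 29 cells, and Flt1 exceeded Nrp1 in 33 cells. Nrp1 and Flt4 were not separated in a steady way, since Flt4 was the higher in 27 cells although its median was lower. Kdr exceeded Nrp2 in all 50 cells and Tie1 exceeded Flt4 in all 50. Kdr and Flt1 each led in 7 cells and Tek in 3. Tie1 gave a median of 36.6% of the receptor TPM of a cell and Tek 13.3%.

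All 7 receptors were present together in 27 cells (54%, interval 39.3 to 68.2%). Another 14 cells held 6 of them, 6 cells held 5 and 3 cells held 4, and no cell held fewer. Every cell combined at least 1 VEGF receptor kinase with at least 1 Tie receptor, which follows from Kdr and Tie1 being present in every cell. The 3 VEGF receptor kinases were found together in 42 cells, both Tie receptors in 49 cells, and all 5 kinases in 41 cells. From the shares of each gene alone, Flt1 and Flt4 would be expected together in 39.6 cells.

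Most gaps were in the neuropilins. Nrp2 alone was missing in 8 cells, Nrp1 alone in 3 and both in 3, against 2 cells that missed Flt1 alone and 1 that missed Tek alone. Both neuropilins were present in 31 cells, Nrp1 without Nrp2 in 10 and Nrp2 without Nrp1 in 5, so 46 cells had at least 1 of them beside Kdr. Flt4 and Nrp2 were found together in 33 cells. From the shares of each gene alone 31.7 cells would be expected for that pair, and 29.5 for the neuropilins together. The 3 cells with only 4 receptors, 4-4, 4-6 and 4-7, all came from the first title number 4, and cell 4-6 had the fewest genes above TPM 1 of all cells. Without cell 4-6 the share of cells with all 7 receptors was 55.1%.

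Relations over the 50 cells are given as Spearman's rho, as a description without a p-value, since the cells form 1 sample, share an amplification kit and are of unknown depth. A relation was counted as a lean when its absolute rho was 0.3 or more and its sign was the same within each of the 4 first title numbers. Among the 21 receptor pairs, 4 met this rule in the positive direction, against 2.89% of all gene pairs, taken over genes present in 20% of the cells or more. Kdr was in 3 of them, with Nrp1 (rho 0.38), Tek (0.35) and Nrp2 (0.31), and the fourth joined Flt1 and Flt4 (0.47). Flt1 and Nrp1 had the highest rho of any pair, 0.50, but it was -0.18 within 1 of the first title numbers. Tie1 and Nrp2 had the lowest, -0.15, and the rho of Tie1 with Tek, its partner in the receptor complex, was 0.10. Holding the number of genes above TPM 1 constant gave 0.38, 0.35, 0.297 and 0.47 for these 4 relations, so that Kdr with Nrp2 no longer reached 0.3.

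**Figure D2:**
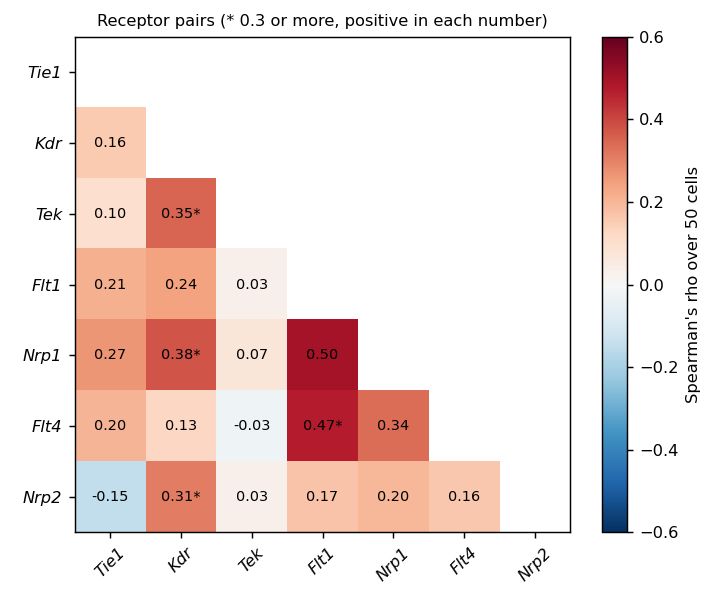
Spearman's rho over 50 cells for each of the 21 receptor pairs, red for positive and blue for negative values, with a star where rho was 0.3 or more and positive within each first title number. The 4 starred pairs are Kdr with Tek, Nrp1 and Nrp2, and Flt1 with Flt4.

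Runx1 ran from 0.16 to 913 TPM with a median of 132 TPM and was above TPM 1 in 43 cells. Reads of the cassette and of the endogenous gene cannot be told apart in this table. The levels fell apart at a gap, with 9 cells at or under 1.95 TPM and 41 cells at or above 6.64 TPM. Both neuropilins tended to lower levels where Runx1 was higher. Over the 50 cells Nrp1 had a rho of -0.34 with Runx1, between -0.55 and -0.15 within the first title numbers, and Nrp2 a rho of -0.32, between -0.60 and -0.04. The rule for a negative lean with Runx1 was met by these 2 of the 7 receptors and by 0.725% of the 9103 genes compared (4.44% met it in the positive direction).

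Among the 41 cells above the gap the rho of Nrp1 with Runx1 was -0.42, and among the 9 cells below it 0.07, a difference that was not tested. Nrp1 was above TPM 1 in 33 of those 41 cells, at a median of 37.5 TPM, and in 8 of the 9, at a median of 48.5 TPM. The ranges overlapped from end to end, 0 to 129 TPM above the gap and 0 to 84.1 TPM below it. For Nrp2 rho was -0.31 above the gap and -0.70 below it, with 29 of 41 and 7 of 9 cells above TPM 1. The split at the gap was made after the values were seen. Holding the number of genes above TPM 1 constant gave -0.38 for Nrp1 and -0.40 for Nrp2, and holding the division score constant gave -0.35 and -0.31. Without the cells of the first title number 4 the values were -0.296 and -0.22, so that neither neuropilin then met the rule.

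The other receptors met the rule in neither direction. Kdr had a rho of -0.21 with Runx1, Flt4 -0.23, Tek -0.14 and Flt1 -0.13. For Kdr the value was negative within all 4 first title numbers (-0.43 to -0.02) and on both sides of the gap, at -0.33 above it and -0.80 below it. It was -0.301 without the 7 cells under 5000 genes above TPM 1 and -0.09 without the first title number 4. The median of Kdr ran the other way, at 112 TPM in the 41 cells above the gap and 97.9 TPM in the 9 below it. Tek, Flt1 and Flt4 changed sign between the first title numbers. Tie1 was the only receptor with a positive value, 0.19, between 0.03 and 0.51 within the first title numbers, but above the gap its rho was -0.05 and below it 0.08. Tie1 had a median of 244 TPM in the 41 cells above the gap and 154 TPM in the 9 cells below it, and the ranges overlapped. The median number of genes above TPM 1 was 6294 above the gap and 5137 below it, and its part in that difference was not tested.

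The receptor score, the mean log2(TPM + 1) of the 7 genes, had a rho of -0.31 with Runx1, between -0.47 and -0.13 within the first title numbers. It rested in part on the neuropilins, being -0.22 without Nrp1 and -0.25 without Nrp2, and it was -0.26 without the first title number 2 and -0.27 without number 4. Seen as presence, all 7 receptors were found in 22 of the 43 cells with Runx1 above TPM 1 and in 5 of the 7 other cells, and Kdr and Tie1 were present in every cell of both kinds.

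**Figure D3:**
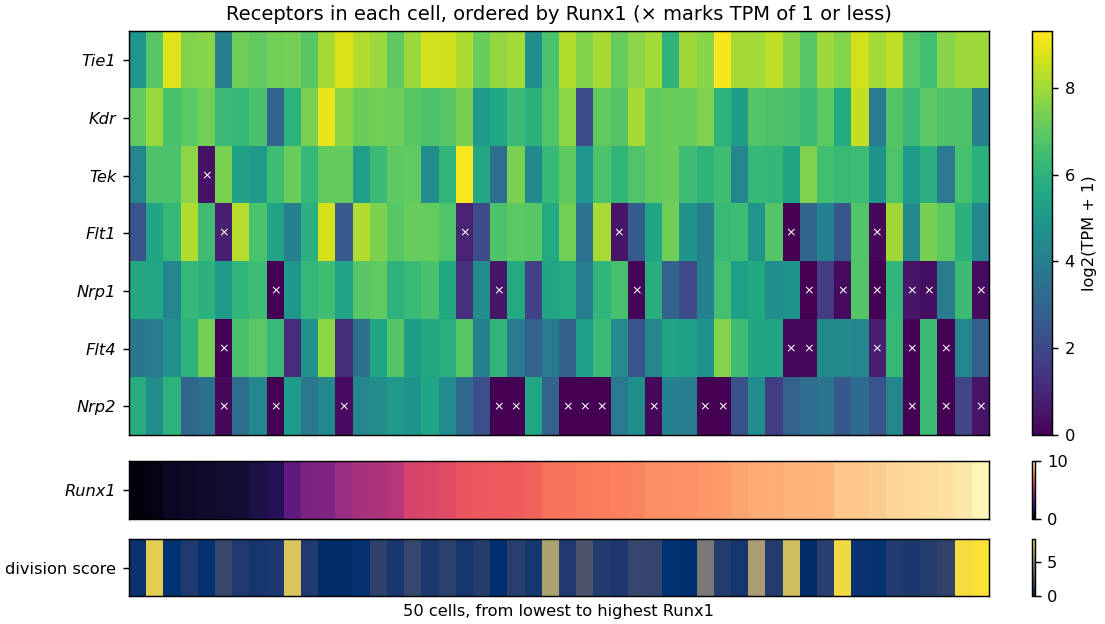
Each column is 1 of the 50 cells, ordered from lowest to highest Runx1, with the 7 receptors as log2(TPM + 1) in the upper panel, Runx1 on the same scale in the middle and the division score (mean log2(TPM + 1) of 30 genes) below. Crosses mark values of TPM 1 or less: the 9 crosses of Nrp1 and the 6 of Flt4 lie mostly to the right of the middle, while Tie1 and Kdr have none.

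**Figure D4:**
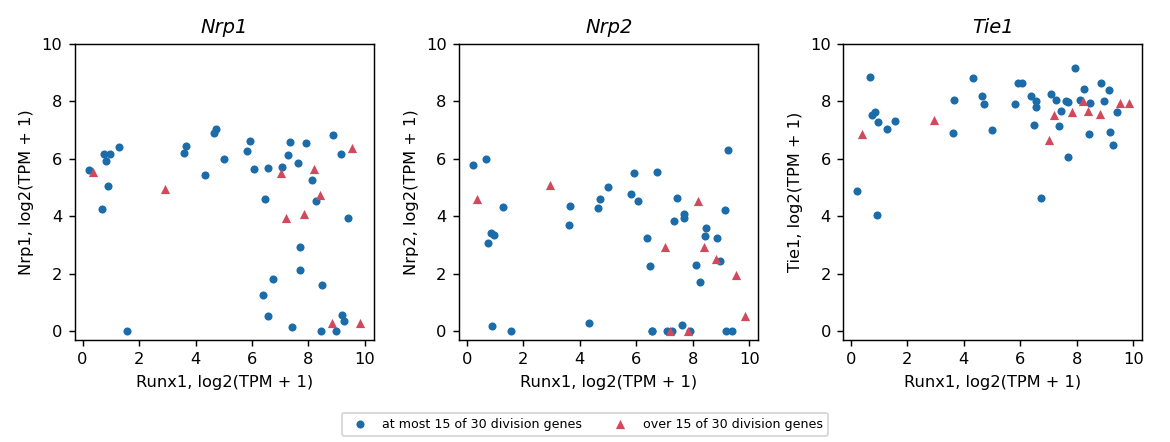
Nrp1, Nrp2 and Tie1 against Runx1 in 50 cells, both axes as log2(TPM + 1), with triangles for the 10 cells that had over 15 of 30 division genes above TPM 1. The 9 cells to the left of the gap in Runx1 and the 41 to the right of it overlap in all 3 receptors, and the cells near the floor of Nrp1 lie mostly at high Runx1.

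Cell division was read from 30 genes of the G2 phase and mitosis, averaged into a division score. Ccnb1, the mitotic cyclin, was above TPM 1 in 25 cells, Ube2c in 28, Mki67 in 17 and the topoisomerase gene Top2a in 16. The cells fell into separate sets: 10 cells had 18 to 30 of the 30 genes above TPM 1, and the other 40 had 3 to 12. Those 10 came from all first title numbers (4, 2, 3 and 1 cells). The median number of genes above TPM 1 was 6779.5 in them and 6039 in the other 40.

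No receptor met the lean rule with the division score, which 5.52% of 9077 genes met in the positive and 0.694% in the negative direction. Over all 50 cells rho was -0.26 for Flt4, -0.19 for Flt1, -0.17 for Kdr, -0.14 for Tie1, -0.13 for Nrp2, -0.02 for Nrp1 and 0.06 for Tek. Cells in which more genes exceeded TPM 1 also had higher division scores (rho 0.51). Holding that number of genes constant gave -0.26 for Nrp2, -0.24 for Kdr, -0.22 for Flt1 and Flt4, -0.20 for Tie1 and -0.07 for Nrp1, and moved the receptor score from -0.13 to -0.24. These values depended on the first title numbers. Without number 4, Flt4 had a rho of -0.40 and Flt1 of -0.34, past 0.3 and negative within each remaining number. Without number 2 they were -0.18 and -0.04, and the receptor score was at -0.002. Among the 40 cells with few division genes the 7 values lay between -0.13 (Flt4) and 0.12 (Nrp1). Among the 10 cells with many they lay between -0.48 (Flt4) and 0.43 (Tek).

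The receptors were found in both sets of cells. Kdr, Tek and Tie1 were present in each of the 10 cells with many division genes, Flt1 and Flt4 in 9, Nrp1 in 8 and Nrp2 in 7. Kdr had a median of 100 TPM in them and 117 TPM in the other 40 cells, Tek 73.7 and 84.4 TPM, and Tie1 194 and 238 TPM, with ranges that overlapped. Nrp1 had medians of 27.9 and 48.6 TPM and Nrp2 of 5.66 and 9.55 TPM, again with overlap. Within the first title number 1, which held 4 of the 10 cells, Kdr, Tek, Tie1 and Nrp1 ran the other way, with Kdr at a median of 141 against 61.9 TPM, Tek at 80.2 against 47.8 TPM, Tie1 at 221 against 159 TPM and Nrp1 at 30.7 against 14.5 TPM. Within number 4 the single cell with many division genes was above the median of the others for Nrp1 (49.3 against 32.5 TPM), Nrp2 (22.2 against 8.92 TPM) and Tie1 (257 against 238 TPM).

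Flt1 had the largest ratio of medians between the sets among the 7 receptors. In the 10 cells it ran from 0 to 61.4 TPM with a median of 17.4 TPM, and in the other 40 from 0.15 to 413 TPM with a median of 102 TPM. None of the 10 cells reached the 50-cell median of 67.0 TPM, while 25 of the 40 exceeded it, and the ranges still overlapped. This count was chosen after the values were seen, and 0.0661% of the 9077 genes compared likewise had none of the 10 cells above their own median. Within the first title numbers 1, 2 and 3 every cell with many division genes was below the median Flt1 of the remaining cells, and in number 4 the single such cell was above that median, 19.9 TPM. Flt4 ran up to 44.3 TPM in the 10 cells with a median of 15.7 TPM, and up to 207 TPM in the other 40 with a median of 37.3 TPM. This difference was not repeated in every set, since within number 1 the medians of Flt4 were 15.7 and 16.1 TPM and within number 4 the single cell, at 44.3 TPM, was above a median of 18.1 TPM. With a score of 28 genes of DNA replication in place of the mitotic ones, Flt4 had a rho of -0.36 that was negative within each first title number, a rule that 0.947% of 9077 genes met (10.7% met it in the positive direction). Nrp2 had a rho of 0.06 with the replication score, opposite in sign to its value with the division score.

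**Figure D5:**
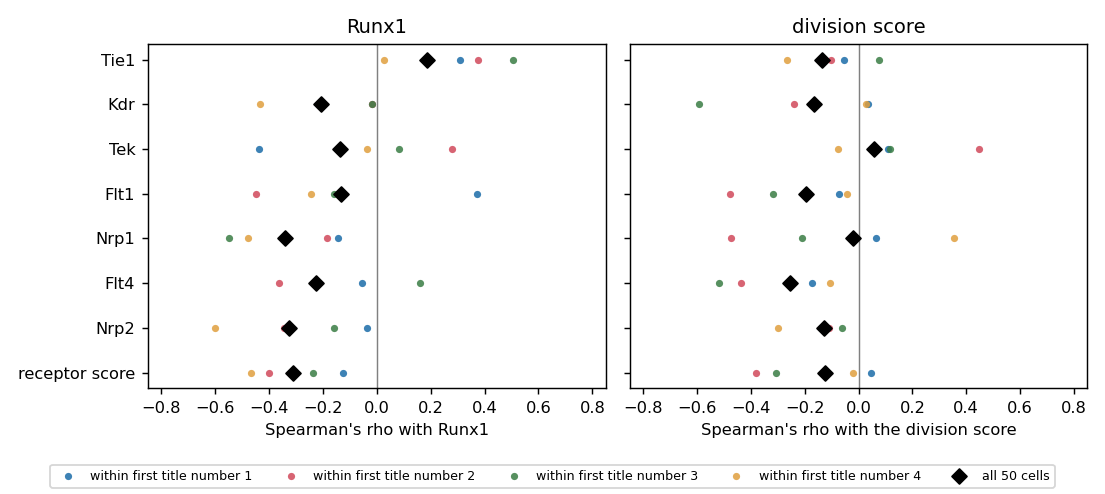
Spearman's rho of each receptor and of the receptor score with Runx1 (left) and with the division score (right), as a black diamond over all 50 cells and coloured points within each first title number. Nrp1, Nrp2, Kdr and the receptor score have all 4 points on the negative side with Runx1, and Tie1 has all 4 on the positive side.

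The ligands of these receptors were found in part of the cells. Of 15 VEGF, angiopoietin and semaphorin genes 8 had a row, and 3 of them were above TPM 1 in over 50% of the cells, a level that 51.4% of all gene rows reached. Vegfa, the ligand of Kdr and Flt1, was above TPM 1 in 42 cells with a median of 23.2 TPM, Vegfb, a ligand of Flt1, in 35 cells, and Vegfc, the ligand of Flt4, in 33 cells. The angiopoietins were rare, with Angpt2 in 7 cells and Angpt1, the activating ligand of Tek, in 1 cell. Pgf, another ligand of Flt1, was above TPM 1 in 1 cell, at 234 TPM. Sema3f, a semaphorin that binds Nrp2, was above TPM 1 in 22 cells, leaned with the receptor score (rho 0.54) and leaned negatively with Runx1 (-0.33), while Vegfb leaned positively with Runx1 (0.38). Only 4 ligands were present in enough cells to be compared. The positive lean with the receptor score was met by 5.00% and the negative by 0.802% of the 9097 genes compared. With Runx1 these shares were 4.44% and 0.725% of 9103 genes.

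Of 19 genes for partners of the receptors 18 had a row and 12 were above TPM 1 in over 50% of the cells, beside 51.4% of all rows. Cdh5, Ctnnb1 (beta-catenin, its cytoplasmic partner) and Itgb1 (an integrin beta chain) were above it in all 50 cells. Plxnd1, the plexin of endothelial cells, and Gipc1, an adaptor that binds the tail of Nrp1, were above it in 49, and Ptprb (VE-PTP), the phosphatase that acts on Tek, in 43. The A plexins, through which neuropilins pass on semaphorin signals, were seen in fewer cells, with Plxna1 in 21, Plxna2 in 18, Plxna4 in 13 and Plxna3 in 2, and the endocytic adaptor Epn1 in 17. Svep1 was listed at 0 in every cell. Of the 16 partners that could be compared, 7 leaned positively with the receptor score, beside 5.00% of all genes compared: Itgb1 (0.54), Gipc1 (0.49), Plxnd1 (0.41), Epn2 (0.41), Ctnnb1 (0.39), Itga5 (0.37) and Epn1 (0.33).

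Of 30 genes that carry the signal onward 29 had a row, and 20 were above TPM 1 in over 50% of the cells, beside 51.4% of all rows. Rasip1, a Ras-interacting protein needed for vessel lumens, was above it in all 50 cells, and Nos3 (endothelial nitric oxide synthase), the adaptor Crk and the kinase Mapk3 in 49. Prkcb, a protein kinase C, exceeded TPM 1 in no cell and was listed at 0 in 48. Of the 21 compared, 5 leaned positively with the receptor score, a rule met by 5.00% of all genes compared: Nos3 (0.51), Rasip1 (0.47), Fyn (0.37), Shc1 (0.33) and Crk (0.30). None of the 16 partner, 21 signalling and 6 response genes compared leaned with Runx1, a rule that few genes met at all (4.44% positive and 0.725% negative), so nothing particular to these lists is read from it.

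The list of response genes was made of genes that rise on VEGF stimulation, apart from Flt3, a cytokine receptor of blood progenitors that is no known target of VEGF. Of its 10 genes 8, with Flt3 included, had a row and 4 were above TPM 1 in over 50% of the cells, close to the 51.4% of all rows. Nr4a1, an immediate early nuclear receptor, was above it in 46 cells, Dusp5 (a phosphatase) in 43, Rcan1 (an inhibitor of calcineurin) in 39 and Aplnr (the apelin receptor) in 38. The Notch ligand Dll4 was above it in 22 cells, Hlx in 21 and Apln in 5, and Flt3 was listed at 0 in every cell. Of the 6 response genes compared Rcan1 alone leaned with the receptor score (0.39), a positive lean that 5.00% of all genes compared met. Nr4a1 had a rho of -0.04 with that score. Among the 9 endothelial markers 4 leaned positively with the receptor score (Esam, Cldn5, Emcn and Eng), beside 5.00% of all genes compared. None of the 9 leaned with Runx1, and nothing is read from this, since few genes did (4.44% positive and 0.725% negative). Cdh5, which is also a receptor partner, leaned negatively with the division score (-0.37), beside 0.694% of all genes compared. Holding the number of genes above TPM 1 constant gave -0.21 for Cdh5, which no longer reached 0.3. Among 27 division genes compared Cdk1 alone leaned with the receptor score, negatively (-0.36), beside 0.802% of all genes compared. Nothing particular to the division list is read from this single gene.

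The genes whose levels followed each receptor most closely were different for each receptor but for 1 gene. They are the 3 with the highest rho over the 50 cells among 9103 genes. Being picked as the highest of so many in these same cells, they have high values by the choice itself. No background was drawn for them, so their rho is not read as a relation. Marcksl1 (0.67), Maged1 (0.66) and Sparc (0.65), a matrix glycoprotein, were most like Flt1, and Lamb1 (0.62), a laminin chain, Taok1 (0.59) and Nfib (0.58) most like Flt4. Notch4 (0.64), the endothelial Notch receptor, Mllt4 (0.56) and Trp53i11 (0.55) were most like Nrp1. Mllt4, which encodes the junction protein afadin, also stood second for Kdr (0.56), between Klhl2 (0.57) and Adam19 (0.54). N4bp3 (0.64), Nrarp (0.59), a feedback inhibitor of Notch signalling, and Cxxc5 (0.57) were most like Tie1. Insig1 (0.53) and Nploc4 (0.52) followed a row whose symbol had been turned into a date (0.53), and which is not named here, for Nrp2, and Insig1 turned to -0.23 within 1 of the first title numbers. Plekhm1 (0.49), Pwwp2b (0.48) and Ppig (0.46) were nearest to Tek, with lower values than for any other receptor. Plekhm1 and Pwwp2b had a median of 0 TPM and were above TPM 1 in 12 and 16 cells. Holding the number of genes above TPM 1 constant kept 2 or 3 of the 3 genes for each receptor.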

How the data were processed

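Poly(A) RNA of 50 sorted single cells was amplified and sequenced by the authors, with no molecular identifiers named. The deposited values are TPM per gene and cell. The submitters' processing notes name bcl2fastq, HISAT2 2.1.0, SAMtools 0.1.19, StringTie 1.3.4 and the build mm10. The columns summed to between 942975 and 970894 TPM over 11879 rows, and the rule that chose these rows was not given in the sources used here. TPM keeps no depth, so cells could not be brought to equal depth, and dropout differs between cells by an unknown amount. No count test was run, and no p-value is given, as the cells are 1 group of 1 sample and are not replicates.

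Values were processed in Python 3.11.15 with numpy 2.4.6, pandas 2.3.3 and scipy 1.17.1. Presence was TPM above 1, scores were means of log2(TPM + 1), and the genes compared were those present in 20% of the cells or more. The named genes were the 7 receptors, Runx1, genes of the ligand, partner, signalling and response lists, those with the highest or lowest shares of cells or a lean first, 4 division genes, the cell type markers, and the 3 genes most like each receptor. The receptors and gene lists were chosen with earlier results of these data known, Cdk1 was named after its values were seen, and the RUNX and TATA motifs, the split of Runx1 at its gap and the split by division genes were added after the values were seen. Rank correlations and the lean rule were tested on simulated data. The alternatives were other TPM limits, leaving out each first title number or the cells under 5000 genes, partial rho, Pearson's r, another pseudocount and rescaling without ribosomal protein genes.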

Additional observations from a re-analysis of the deposited data

How the results depend on the processing

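Presence depended on the TPM limit. With TPM above 0 as the limit, the median share of cells over the receptors was 98% and all 7 were found in 72% of cells, against 90% and 54% at TPM above 1. With TPM above 5 all 7 were found in 36% of cells and the median number per cell was 6. With TPM above 10 these were 24% and 6, and the median share was 78%. The median number was also 6 without the cells of the first title number 3. The other 68 alternative values of these and of the receptor score relations stayed inside a band around each main value. For shares the band was the exact interval over cells. For rho it was the standard deviation of the values within the first title numbers, to either side. It ran from -0.47 to -0.16 for the receptor score with Runx1, and from -0.33 to 0.08 with the division score. Values under 0.3 in size, such as -0.22 with Nrp1 left out of the score, also lay inside it. Staying inside such wide bands is therefore not read as stability. Over its alternatives the rho of Nrp1 with Runx1 lay between -0.45 and -0.296 (without the first title number 4), that of Nrp2 between -0.41 and -0.22, and that of the receptor score between -0.41 and -0.22. With the division score, Flt4 lay between -0.40 and -0.18, Flt1 between -0.34 and -0.04 and the receptor score between -0.25 and -0.002. No paired analysis was possible because all cells belonged to a single group. Without depth, a low value in a cell cannot be told apart from a missed transcript.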
